A study of Ovis aries with 14 samples.

Results

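The ovaries of fetal sheep taken on day 90 of gestation were compared after testosterone treatment of the mother and without it. The comparison uses 6 of the 14 samples of the series, chosen by their labels alone: the 3 fetal controls and the 3 fetal testosterone samples, for which a table of 16513 genes was analysed. All 6 samples were whole frozen ovaries of wild type Suffolk sheep at day 90, from which total RNA was sequenced. The testosterone group came from mothers injected into the muscle with testosterone propionate in cottonseed oil, 2 times a week from day 30 to day 90, and the labels write the dose both as 100 mg and as 1.2 mg/kg. The labels give the control group no vehicle or other agent. They number the samples without stating how fetuses relate to mothers, litters or twins, so the p-values below measure only the spread between these samples. The remaining 8 samples were adult ovaries, which are not analysed here.

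At this stage of gestation the sheep ovary holds germ cells at several steps at once. Oogonia divide in nests near the surface, germ cells deeper in the tissue pass through meiosis, and the first oocytes are enclosed by pregranulosa cells to form primordial follicles. Around them lie stroma, blood vessels, the surface epithelium and the rete, a system of cords that derives from the mesonephros. Testosterone can act as an androgen itself or, after conversion to oestradiol, through oestrogen receptors. Prenatal testosterone in sheep is used as a model of polycystic ovary syndrome, because the adult females develop disturbed cycles and enlarged, multifollicular ovaries.

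Values are the deposited normalized counts (the reads of a gene after scaling for the size of its library), given in the order of replicates 1, 2 and 3. Where both groups stand together, the 3 control values come first, against the 3 testosterone values. They are not divided by gene length, so levels are compared between libraries and not between genes. Log2 changes are testosterone minus control on the scale of log2(value + 1), with the standard error (SE). The main test was limma with a mean-variance trend, with Benjamini-Hochberg adjustment over all 16513 genes and a threshold of 0.05. Recovered reads ran from 24.1 to 26.5 M in the controls and from 26.1 to 28.4 M in the testosterone libraries. Pearson correlations of log2 values lay between 0.9724 and 0.9851 within groups and between 0.9711 and 0.9832 across groups, so the ranges overlap.

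The axis that separated the libraries most was not the treatment. The first principal component held 33.95% of the variance, and on it control 3 (31.98) and testosterone 3 (40.57) stood apart from the other 4 libraries (-26.91 to -8.44). The treatment groups were separated on the second component, with 25.45% of the variance, where the controls scored 18.11, 27.84 and 17.1 and the testosterone libraries -15.8, -37.91 and -9.34. Control 3 and testosterone 3 carried less RNA of meiotic genes and more of oocyte genes than the others. The mean of the meiotic list, in log2 units relative to the mean of the 6 libraries, was 0.47, 1.02 and -0.77 in the controls and 0.41, -0.39 and -0.74 with testosterone. The mean of the oocyte list was -0.19, -0.56 and 0.92 in the controls and -0.47, -0.34 and 0.63 with testosterone. The labels give no batch, date or exact fetal stage for these libraries, and the part of this axis in the results was tested only by adding the meiotic level to the model as a covariate. In whole tissue, fewer cells of a type and less RNA per cell cannot be told apart.

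**Figure D1:**
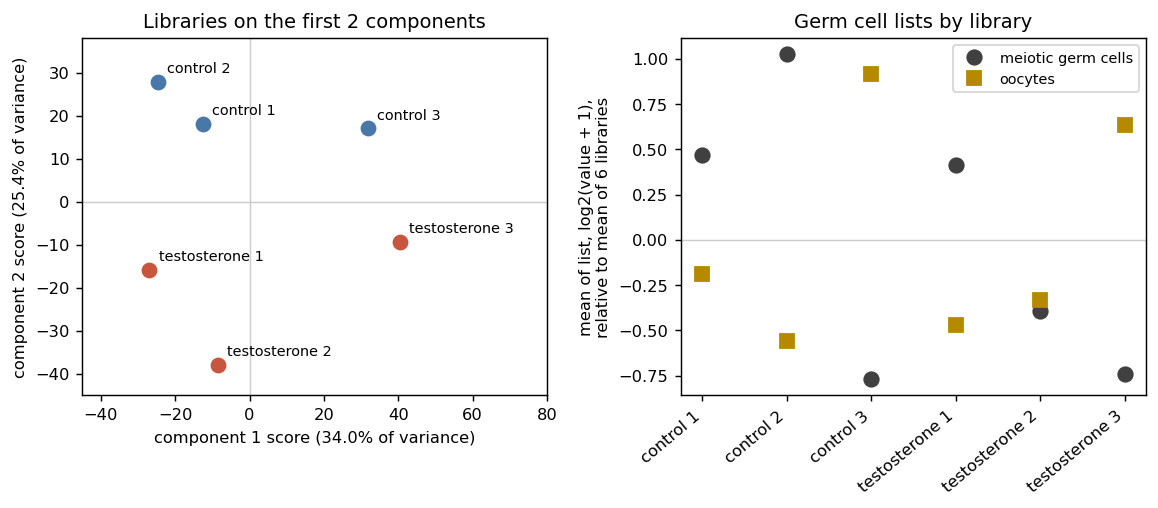
Left, each library's score on the first 2 principal components of log2(value + 1), with controls in blue and testosterone libraries in red. Right, the mean of the meiotic (31 genes) and oocyte (10 genes) lists in each library, in log2 units relative to the mean of the 6 libraries. The groups part on component 2, and control 3 and testosterone 3 lie at the right on component 1, with low meiotic and high oocyte values.

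Most differences between the groups were small beside the spread of the replicates. Over all genes the median size of the log2 change was 0.15 and the median SD within a group was 0.19, and 95% of the genes differed by less than 0.71. With limma 2 genes rose (0.0121% of those tested), EFHB and CORIN, and 1 fell (0.00606%), PLCXD3, so that 0.0182% passed in either direction. At an unadjusted limma p under 0.05 there were 868 genes higher (5.26%) and 743 lower (4.5%), together 9.76%. All 3 testosterone values lay above all 3 control values for 1467 genes (8.88%) and below them for 1232 (7.46%), together 16.3%. A difference of at least 2-fold was seen for 130 genes higher (0.787%) and 202 lower (1.22%), together 332 (2.01%), and without control 3 that total was 521. The sign of the change was positive for 46.6% of the genes and negative for 53.4%, and the median over all genes was -0.02.

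DESeq2 on the recovered reads, the tool that the series text names, called far more genes from the same libraries. It put 178 genes higher (1.08%) and 84 lower (0.509%) at an adjusted p under 0.05, together 1.59%, and gave no adjusted p for 1608 genes. The groups did not overlap in 174 of the 178 and in 83 of the 84, and limma gave all 262 the same sign, with limma adjusted p from 0.0218 to 0.417. The number of calls changed when 1 library was left out. The number higher was 84, 93 and 153 without control 1, 2 and 3. It was 112, 91 and 261 without testosterone 1, 2 and 3. The number lower was 29, 54 and 91 without control 1, 2 and 3. It was 69, 48 and 212 without testosterone 1, 2 and 3. In these fits the part of the library left out and that of having fewer libraries cannot be told apart. With the meiotic level as a covariate DESeq2 called 170 higher and 153 lower, which include 125 of the 178 and 63 of the 84. edgeR, run on the same reads, called 4 genes (0.0242%), the 3 of limma and SPATA46, a gene named for spermatogenesis and chosen here after its values were seen. SPATA46 stood at 2.14, 1.96 and 2.00 in the controls and 34.3, 30.4 and 35.9 with testosterone (limma adjusted p = 0.0554, edgeR adjusted p = 0.0366). Its control values stand for about 2 reads each, so no fold is given, and DESeq2 gave it no adjusted p. Only the 3 genes that passed limma are said to have risen or fallen, and DESeq2 calls are named as such. Counts of DESeq2 calls in the lists below are to be set against 1.08% of all genes higher and 0.509% lower.

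The size and direction of the differences went with the level of the gene. Among the 2451 genes with a mean from 10 to 50, the median SD within a group was 0.50 in log2 units and the groups did not overlap for 11.67%, with 69 at least 2-fold higher and 130 at least 2-fold lower. Among the 928 genes with a mean above 5000, that SD was 0.11 and the groups did not overlap for 26.08%. In these abundant transcripts the separated genes were mostly higher, 200 against 42 lower, and DESeq2 called 49 higher and 4 lower. Among the 5021 genes with a mean from 1000 to 5000, 498 were separated upward and 431 downward, and DESeq2 called 50 and 29. Of all DESeq2 calls, 71 of the 178 higher and 17 of the 84 lower were under 0.5 in log2 units, while 37 and 24 were at least 2-fold. The genes called higher had a median level of 1243 against 708 for those called lower and 564 for all genes. A gene symbol was given for 128 of the 178 and 74 of the 84, and for 12585 of the 16513 genes, and only genes with a symbol are named.

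**Figure D2:**
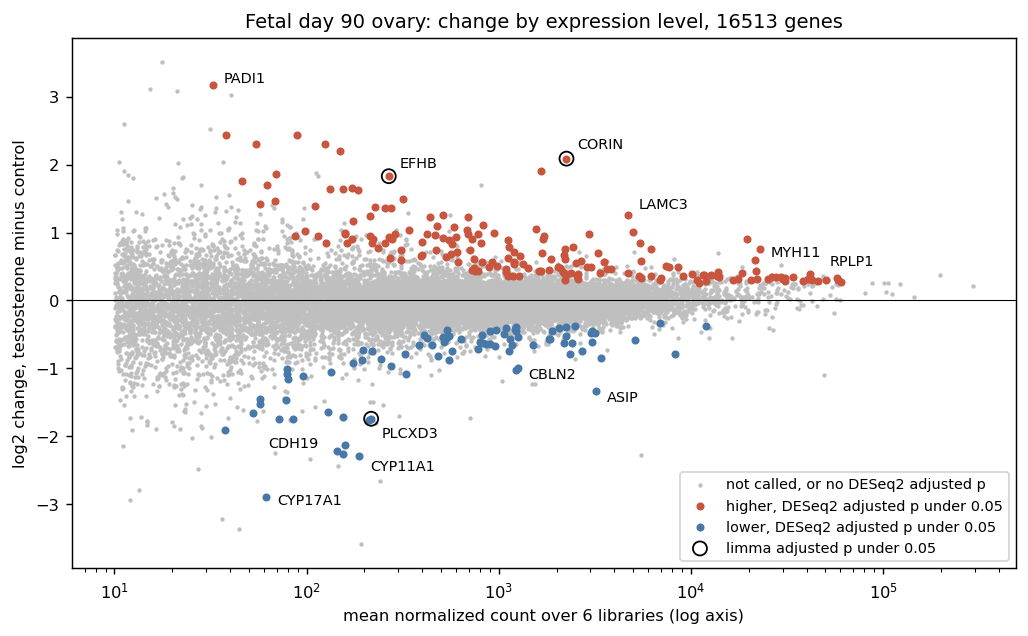
Log2 change, testosterone minus control, against the mean normalized count (log axis) of each of 16513 genes. Red and blue points are the 178 higher and 84 lower DESeq2 calls and black circles the 3 genes that passed limma. Above a mean of 5000 the calls lie almost all above 0, and the scatter of all genes widens toward low counts.

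CORIN and EFHB rose and PLCXD3 fell. CORIN, a membrane protease that cuts the precursor of atrial natriuretic peptide into its active form, read 708, 1070.3 and 801 in the controls and 4145, 2905 and 3876 with testosterone (log2 change 2.09, SE 0.18, limma adjusted p = 0.0218). The product of EFHB has calcium-binding EF-hand domains. EFHB read 126, 116 and 109 against 459, 423 and 373 (log2 change 1.83, SE 0.16, limma adjusted p = 0.0218). PLCXD3, which holds the X domain of phosphatidylinositol-specific phospholipase C, read 308, 369 and 326 against 108, 88.1 and 102 (log2 change -1.74, SE 0.17, limma adjusted p = 0.0308). The groups lay far apart in each of these genes, and for CORIN testosterone 2 was the lowest of its group. With 5 libraries the log2 changes stayed between 1.96 and 2.26 for CORIN, between 1.76 and 1.91 for EFHB and between -1.80 and -1.66 for PLCXD3, but the calls did not all hold. CORIN did not pass limma without control 1 (adjusted p = 0.0662), control 3 (0.052), testosterone 1 (0.0926) or testosterone 2 (0.0762). EFHB passed only without testosterone 3 (limma adjusted p = 0.0251) and gave 0.052 to 0.204 without any other library, and PLCXD3 likewise passed only without testosterone 3 (0.0369) and gave 0.0926 to 0.204 otherwise.

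The genes that came next in the upward direction encode matrix proteins, enzymes and membrane proteins of different kinds. LAMC3, a laminin gamma chain of basement membranes, read 3326, 2866 and 2214 in the controls and 6899, 6378 and 6488 with testosterone (log2 change 1.25, SE 0.14, limma adjusted p = 0.0554, DESeq2 adjusted p = 4.82e-12). FIBIN, a secreted protein first described in fin bud development, read 97.2, 83.2 and 88.0 against 254, 245 and 347 (log2 change 1.63, limma adjusted p = 0.0554). EMILIN3, a glycoprotein of the elastin microfibril interfacer family, read 455, 637 and 499.7 against 1045, 1257 and 1099 (log2 change 1.10, limma adjusted p = 0.0809). All 3 are matrix or secreted proteins, and in each the testosterone libraries lay well above the controls. The genes of this paragraph were taken from those whose groups do not overlap, so their separation holds by selection. PADI1, an enzyme that turns arginine into citrulline in proteins, was near the lower end of detection in the controls, at 5.34, 5.87 and 5, and read 45.1, 91.2 and 43.4 with testosterone (log2 change 3.17, SE 0.40, limma adjusted p = 0.06, DESeq2 adjusted p = 9.49e-06). ADGRD1, an adhesion G protein-coupled receptor, read 425, 536 and 395 against 974, 866 and 914 (log2 change 1.03). GRK4, a kinase that silences activated G protein-coupled receptors, read 1760.1, 2223 and 1946 against 4604, 3814 and 3325 (log2 change 0.98). Both had a limma adjusted p above 0.05 (0.0809 and 0.0848) and were called by DESeq2 (1.71e-07 and 1.84e-07).

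Other genes called higher by DESeq2 had smaller changes in abundant transcripts or large changes in scarce ones. PRDX6, a peroxiredoxin that reduces peroxides, read 1699, 1489 and 1777 in the controls and 2539, 2886 and 2938 with testosterone (log2 change 0.75, SE 0.10, DESeq2 adjusted p = 3.96e-07). ANXA9, an annexin, read 78.0, 91.0 and 75.0 against 283, 314 and 189.8 (log2 change 1.65, DESeq2 adjusted p = 3.54e-07). ABCA10, a transporter of the ABC family, read 64.1, 39.1 and 48.0 against 344, 271 and 132 (log2 change 2.20, DESeq2 adjusted p = 1.7e-06), with testosterone 3 lowest in its group. LRRN1, SLITRK1, CDK5R2 and PLPPR1 are known mainly from neurons. LRRN1, a neuronal leucine-rich repeat protein, read 886, 957 and 367 against 2328, 2370.4 and 2996, so that control 3 held less than the other 2 controls (log2 change 1.91, SE 0.33, DESeq2 adjusted p = 5.87e-07). SLITRK1, a synaptic adhesion protein, read 21.4, 12.7 and 17.0 against 52.9, 123 and 100.1 (log2 change 2.31, DESeq2 adjusted p = 0.000109). CDK5R2, an activator of the kinase CDK5, read 34.2, 32.3 and 42.0 against 90.2, 106 and 108 (log2 change 1.47, DESeq2 adjusted p = 0.00089). PLPPR1, a membrane protein of growing neurites, had a log2 change of 1.10, KBTBD12, a kelch-repeat protein, 1.70, and TMPRSS11E, a serine protease of epithelia, 1.86. The groups did not overlap in any gene of this paragraph, because all were taken from genes with separated groups.

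Among the lower genes, 4 followed PLCXD3 closely. CBLN2, a cerebellin that links neurexins across synapses, read 1538, 1632 and 1826 in the controls and 819, 764 and 933 with testosterone (log2 change -0.99, SE 0.12, limma adjusted p = 0.0554, DESeq2 adjusted p = 3.26e-10). ASIP, the agouti signalling protein that blocks melanocortin receptors, read 4257, 3781 and 5853 against 1997, 1839.6 and 1608 (log2 change -1.33, SE 0.16, limma adjusted p = 0.0554, DESeq2 adjusted p = 7.52e-11). PNPLA1, an enzyme of skin barrier lipids, read 181, 304 and 291 against 39.2, 75.0 and 63.3 (log2 change -2.12, limma adjusted p = 0.0891). In these genes every testosterone value was far below the lowest control. CDH19, a cadherin typical of Schwann cells, read 237, 295 and 174 against 53.9, 68.9 and 31.2 (log2 change -2.21, SE 0.33, limma adjusted p = 0.105, DESeq2 adjusted p = 2.2e-07). MCHR1, a receptor for melanin-concentrating hormone, read 189, 251 and 297 against 134, 32.4 and 27.4 (log2 change -2.27, DESeq2 adjusted p = 0.023), so that testosterone 1 lay between the controls and the other 2. ABCA12, a lipid transporter of the skin, read 239, 252 and 208 against 127, 47.6 and 56.6 (log2 change -1.71, DESeq2 adjusted p = 0.00324). CNTN6, a contactin of neurons, had a log2 change of -1.74, and CALY, a vesicle protein, -1.91, both called by DESeq2. No testosterone value of a gene in this paragraph reached a control value. All but ABCA12 were taken from genes whose groups do not overlap, so for them this holds by selection.

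**Figure D3:**
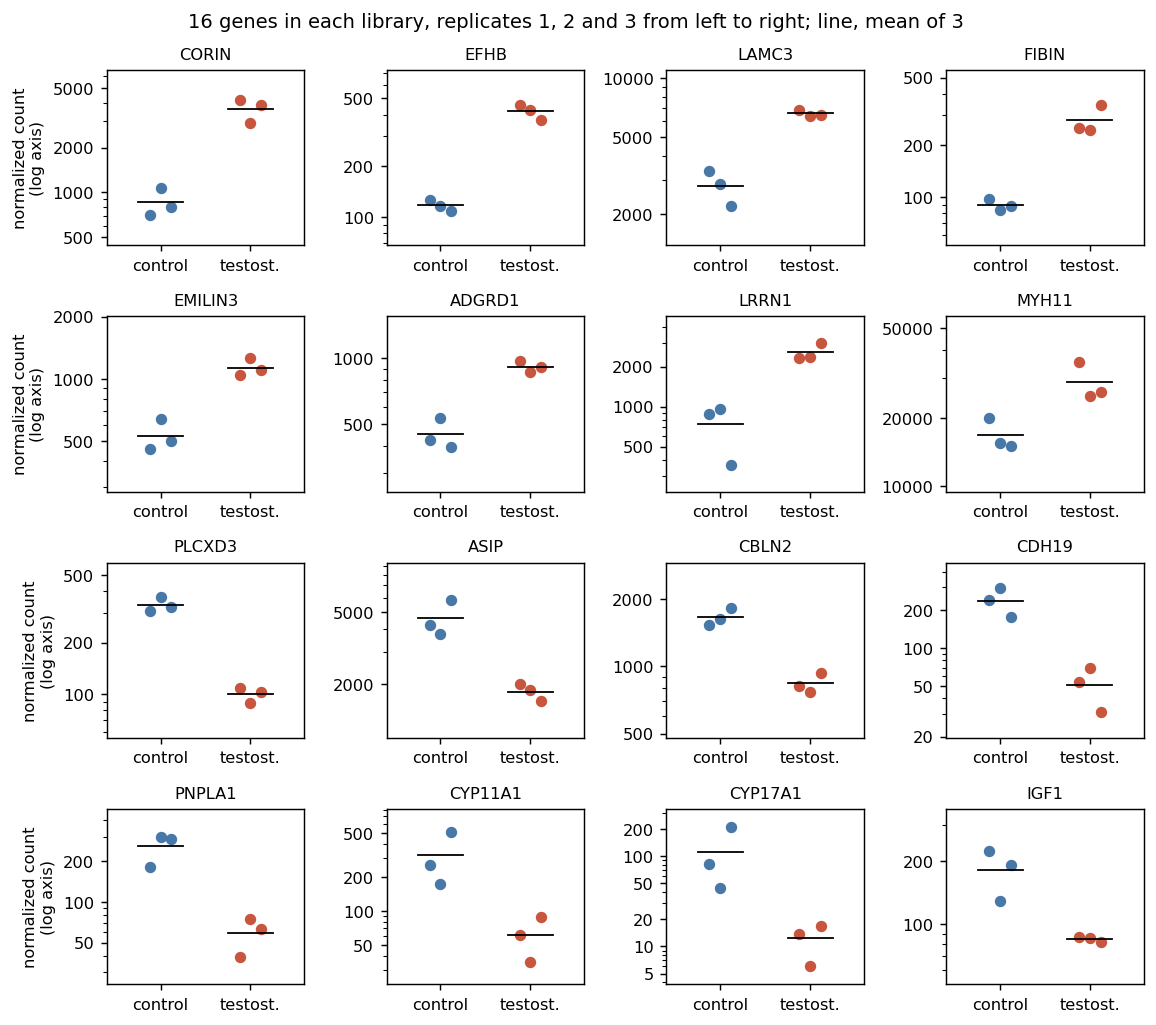
Normalized counts (log axes, a different range in each panel) of 16 genes in the 3 control (blue) and 3 testosterone (red) libraries, replicates from left to right, with a line at each mean. The first 8 genes are higher and the last 8 lower with testosterone, with no overlap in any panel. All but MYH11 and IGF1 were taken from genes whose groups do not overlap. CYP17A1 and CYP11A1 show the widest spread among the controls, with control 3 highest.

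Germ cell transcripts were lower on average with testosterone, and libraries of 1 group differed widely in them. Of 31 measured genes of the meiotic list 29 were negative, with a median log2 change of -0.48, against 53.4% negative and a median of -0.02 over all genes. None passed limma or DESeq2, 2 had an unadjusted limma p under 0.05, and in 0 of the 31 did the groups separate, against 16.3% of all genes. Over the 6 fits without 1 library the median ran from -0.90 (without control 3) to -0.12 (without control 2). The covariate that holds the meiotic level is the mean of these same genes, so a fit with it brings their median near 0 by construction and says nothing about this list. STRA8, a switch for entry into meiosis, and SYCP3, of the synaptonemal complex, were picked after their values were seen. STRA8 read 128, 275 and 49.0 in the controls and 159, 84.1 and 68.9 with testosterone. SYCP3 read 900, 1005 and 400 and then 977, 606 and 460, so both groups held high and low libraries. SMC1B, a meiotic cohesin, read 2204, 3359 and 2153 against 2206, 1458 and 1533 (log2 change -0.56, SE 0.21, limma adjusted p = 0.453). The highest value was that of control 2.

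The other germ cell lists had smaller medians in the fit without the covariate. Of 13 genes of primordial germ cells and oogonia 11 were negative, with a median of -0.29, and 0 were called by DESeq2. That median was -0.11 without testosterone 2, -0.16 without control 2 and -0.18 with the covariate. DDX4, an RNA helicase of the whole germ line, read 4415, 6579 and 3679 in the controls and 4682, 3163 and 3156 with testosterone (log2 change -0.40). In the list of the piRNA pathway, which silences transposons in germ cells, 17 of 19 genes were negative with a median of -0.36 (-0.20 without testosterone 2, -0.22 without control 2 and -0.27 with the covariate). PIWIL2, a piRNA-binding protein, read 857, 1221 and 989 against 796, 571 and 826 (log2 change -0.49, SE 0.18, limma adjusted p = 0.453). MOV10L1, the helicase that loads piRNA precursors, read 1344, 1599 and 1401 against 1249.8, 946 and 981 (log2 change -0.46, limma adjusted p = 0.338). The groups did not overlap in either gene, but neither passed limma or DESeq2 (0.256 and 0.105). Among 10 oocyte genes 9 were negative with a median of -0.10, which turned positive without control 3 (0.21), testosterone 1 (0.02) or testosterone 2 (0.02). It was further from 0 without control 1 (-0.23), control 2 (-0.43) or testosterone 3 (-0.33) and with the meiotic covariate (-0.56), so that its size and sign follow single libraries and the setting. ZP4, of the egg coat, read 6428, 2601 and 21646 in the controls and 4689, 7152 and 15278 with testosterone, so that control 3 and testosterone 3 were the highest in their groups.

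Smooth muscle genes were higher with testosterone on average. All 15 measured genes of that list were positive, with a median log2 change of 0.49 (0.40 to 0.63 over the 6 fits without 1 library, 0.50 after quantile normalization and 0.49 with TMM scaling), against 46.6% positive over all genes. DESeq2 called 4 of them higher, against 1.08% of all genes, and 9 had an unadjusted limma p under 0.05. MYH11, the smooth muscle myosin heavy chain, read 20053, 15561 and 15127 in the controls and 35277, 25022 and 25979 with testosterone (log2 change 0.76, SE 0.16, limma adjusted p = 0.237, DESeq2 adjusted p = 0.0014). DES, the intermediate filament protein desmin, read 2056, 1886 and 2193 against 2707, 3675 and 2668 (log2 change 0.55, DESeq2 adjusted p = 0.0245). TPM1, a tropomyosin, read 12331, 11559 and 11702 against 15421, 16695 and 13807 (log2 change 0.36, DESeq2 adjusted p = 0.0305). TAGLN, an actin-binding protein, was called by DESeq2 (0.0243) although its groups overlapped, at 4488, 2161 and 3375 against 7637, 8089.8 and 4319.9. Testosterone 3 was the lowest or near the lowest of its group: ACTA2, smooth muscle actin, read 11716, 9340 and 9385 in the controls and 20270, 22821 and 9441 with testosterone. The mean of the list was -0.03, -0.42 and -0.23 in the controls and 0.34, 0.38 and -0.03 with testosterone, so that control 1 and testosterone 3 were level. Markers of pericytes (4 of 11 positive, median -0.18) and endothelium (8 of 20, median -0.06) did not share this direction, and 0 of either were called by DESeq2.

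Among the other somatic lists the changes were smaller. Of 28 measured genes of pregranulosa and granulosa cells 21 were positive with a median of 0.15, and 0 were called by DESeq2. HSPB1, a small heat shock protein, read 7775, 6238 and 7958 against 10745, 9108 and 9367 (log2 change 0.42, SE 0.12, limma adjusted p = 0.328). FST, which binds and neutralizes activins, read 149.6, 182 and 152 against 215, 257 and 269 (log2 change 0.61, limma adjusted p = 0.333), and FSHR, the receptor of follicle-stimulating hormone, 16, 8.80 and 20 against 36.3, 41.5 and 26.4 (log2 change 1.21, limma adjusted p = 0.398). Groups did not overlap in these 3 genes, and FSHR was scarce throughout. WT1 and GATA4, factors of the gonadal soma picked after their values were seen, were level at 6564 to 7573 and 5204 to 6360 in the controls and 7382 to 7556 and 5379 to 7170 with testosterone. The granulosa genes FOXL2, AMH and CYP19A1 and the theca and luteal receptor LHCGR have no row under those symbols and are not analysed here. The stroma list was balanced in sign (11 of 21 positive, median 0.00). Its groups were separated upward in 4 genes and downward in 0, against 8.88% and 7.46% of all genes. DESeq2 called 2 higher and 0 lower, against 1.08% and 0.509% of all genes. PDGFRA, a growth factor receptor of mesenchyme, read 8038, 6714 and 6534 against 9721, 11181 and 9135 (log2 change 0.50, DESeq2 adjusted p = 0.0139). DCN, the proteoglycan decorin, read 36346, 32413 and 38662 against 47517, 50849 and 42681 (log2 change 0.39, DESeq2 adjusted p = 0.0366).

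Keratins were higher on average, and the surface epithelium list gave no steady median. In that list 6 of 13 genes were positive with a median of -0.02, which was positive in 4 of the 6 fits without 1 library (up to 0.19 without testosterone 2). Its list means did not overlap, at -0.12, -0.13 and -0.07 in the controls and 0.17, -0.02 and 0.17 with testosterone. The keratin family had 14 of 15 genes positive with a median of 0.52. KRT8, a keratin of simple epithelia, read 1168, 914 and 1469 in the controls and 2558, 2399 and 1685 with testosterone (log2 change 0.91, SE 0.21, limma adjusted p = 0.279, DESeq2 adjusted p = 0.00364). KRT17 read 111, 159.5 and 148 against 311, 185 and 212 (log2 change 0.73, limma adjusted p = 0.402). UPK1B, a uroplakin of the surface epithelium, read 47.0, 21.5 and 37.0 against 148, 74.0 and 67.0 (log2 change 1.40, limma adjusted p = 0.335). Of the keratins only KRT8 was called by DESeq2, and control 1 set much of the family difference: its family mean was -0.92, against -0.05 and 0.15 in the other controls and 0.21 to 0.32 with testosterone. Without 1 library the keratin median ran from 0.29 (without control 1) to 0.75 (without testosterone 3).

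Markers of the rete and of nerve and immune cells were lower or balanced. Of 16 genes of mesonephros and rete 13 were negative with a median of -0.16 (-0.32 without control 1), and SLC12A1, a salt carrier of kidney tubules, read 771, 502 and 881 against 401, 371 and 488 (log2 change -0.74, SE 0.22, DESeq2 adjusted p = 0.045). Of 17 Schwann cell and glia genes 9 were negative (median -0.01, and -0.03 to 0.16 without 1 library), and CDH19 alone was called by DESeq2. NGFR, the low-affinity neurotrophin receptor, read 1564, 1118 and 1435 against 769.5, 963 and 1026 (log2 change -0.57, limma adjusted p = 0.329), with no overlap. Macrophage genes were negative in 16 of 21 cases with a median of -0.21 (-0.03 without control 1, -0.06 without testosterone 3, -0.34 without testosterone 1 and -0.07 with the meiotic covariate), with list means of 0.40, 0.03 and -0.18 in the controls and 0.09, -0.0015 and -0.34 with testosterone. In neurons and chromaffin cells 10 of 14 were negative with a median of -0.22 (-0.36 without testosterone 1 and -0.12 without testosterone 2), and 0 were called by DESeq2. Lymphocyte and granulocyte genes were balanced (7 of 15 positive), red cell genes were represented by 3 of 19 and adrenal cortex genes by 2 of 12, so those lists say little about blood or adrenal tissue in the samples. The part that these cell types play in other differences was not tested.

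**Figure D4:**
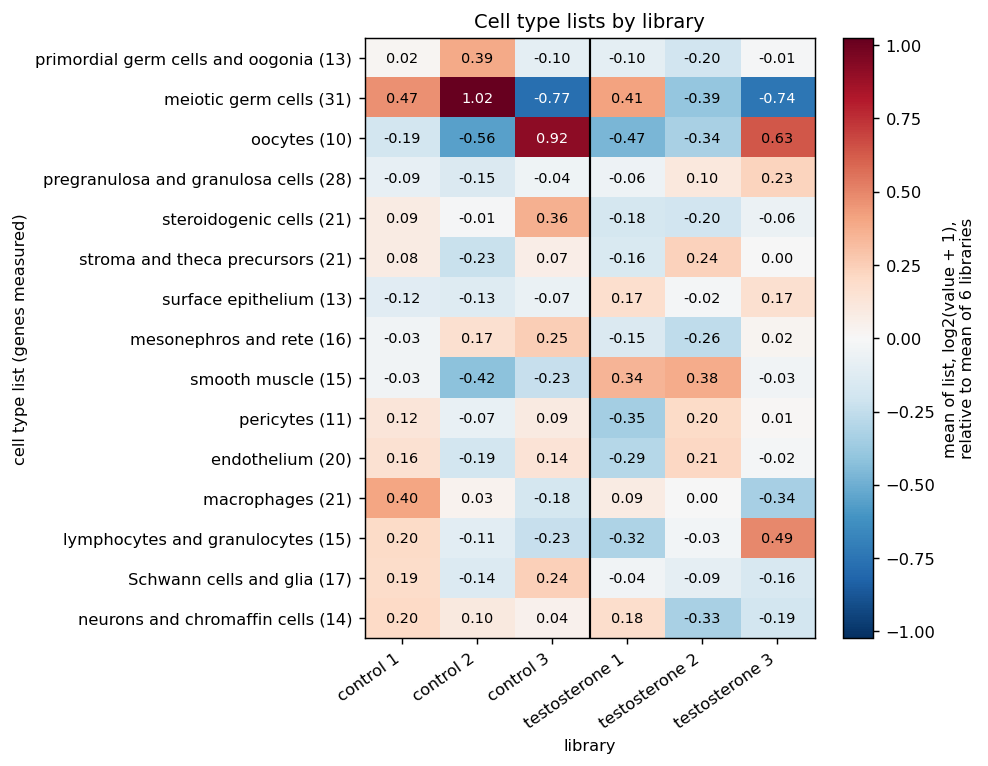
Mean of each cell type list in each library, in log2(value + 1) units relative to the mean of the 6 libraries (red higher, blue lower), with the number of measured genes in brackets. The meiotic and oocyte rows differ most between libraries within a group, and the smooth muscle row runs from -0.42 to -0.03 in the controls and from -0.03 to 0.38 with testosterone.

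The enzymes that make steroids differed in direction and size. CYP11A1, which cuts the side chain of cholesterol in the first step of steroid synthesis, read 257, 174 and 511 in the controls and 60.8, 35.5 and 87.8 with testosterone (log2 change -2.28, SE 0.44, limma adjusted p = 0.223, DESeq2 adjusted p = 3.59e-05). CYP17A1, the enzyme that leads to androgens, read 81.2, 44.0 and 208 against 13.7, 6.08 and 17.0 (log2 change -2.90, SE 0.59, limma adjusted p = 0.237, DESeq2 adjusted p = 0.000224). In both genes control 3 was the highest library and no testosterone value reached a control value. They were the only DESeq2 calls among 21 measured genes of steroidogenic cells, of which 10 were positive and 11 negative (median -0.02). STAR, which brings cholesterol into mitochondria, and HSD3B1, the next enzyme, were picked after their values were seen. STAR read 768, 829 and 915 in the controls and 976, 772 and 700 with testosterone (log2 change -0.05), and HSD3B1 377, 467 and 582 and then 368, 374 and 394 (log2 change -0.31). HSD17B1, which reduces oestrone to oestradiol, was higher at 93.0, 109 and 70.0 against 146, 116 and 155 (log2 change 0.62, limma adjusted p = 0.454), and STS, steroid sulfatase, lower at 111, 80.2 and 101 against 53.9, 51.7 and 74.6 (log2 change -0.70, limma adjusted p = 0.442). Of 23 genes of cholesterol synthesis and uptake 18 were negative with a median of -0.08.

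Steroid receptors and their cofactors were lower on average. Of 16 measured genes 13 were negative, with a median log2 change of -0.16 (-0.21 to -0.10 without 1 library, -0.16 after quantile normalization and with TMM), and in 6 all testosterone values lay below all controls, against 7.46% of all genes. NCOA3, a coactivator of nuclear receptors, read 3208, 3193 and 2992 against 2347, 2788 and 2601 (log2 change -0.28, limma adjusted p = 0.395). None of the list was called by limma or DESeq2. Of 18 genes known to respond to androgens in other tissues 9 were positive and 9 negative (median -0.02), a sign that changed without control 1, control 2, testosterone 2 or testosterone 3 (0.07, 0.04, 0.0037 and 0.01), and 0 were called by DESeq2. In 5 of the 18 all testosterone values lay above all controls and in 1 below, against 8.88% and 7.46% of all genes. An unadjusted limma p under 0.05 was found in 4, all higher, against 5.26% of all genes. FKBP5, a cochaperone of steroid receptors, read 1192, 1168 and 1380.2 against 1642, 1555 and 1412 (log2 change 0.30, limma adjusted p = 0.442). TSC22D3, a steroid-induced leucine zipper protein, read 573, 605 and 617 against 815, 807 and 694 (log2 change 0.36, limma adjusted p = 0.377). KLK4, a kallikrein protease, read 229.8, 153 and 157 against 304, 267 and 237 (log2 change 0.60, limma adjusted p = 0.426). All 3 were higher without overlap and did not pass the test.

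The lists that hold CORIN, ASIP and PLCXD3 were chosen with earlier results of these data known. Of 12 measured genes of the natriuretic peptide system CORIN was the only one called, and 9 of the 12 were negative with a median of -0.14. The receptors NPR1 and NPR2, picked after their values were seen, read 354, 293 and 291 and 3761, 3192 and 2863 in the controls. With testosterone NPR1 read 192, 367 and 375 and NPR2 2871, 3539 and 2969, so both overlapped. Of 9 measured genes of the melanocortin system ASIP was the only DESeq2 call. MRAP2, an accessory protein of melanocortin receptors, was higher at 159, 108 and 164 against 247, 266 and 175 (log2 change 0.67, limma adjusted p = 0.442), and PCSK1, a convertase of prohormones, lower at 1132, 957 and 844 against 824, 728 and 709 (log2 change -0.37, limma adjusted p = 0.45). The phospholipase C family includes enzymes that release inositol trisphosphate and so calcium, but not every member listed here is known to do so. Of its 15 measured genes 8 had separated groups, 3 upward and 5 downward, against 16.3% of all genes. DESeq2 called 1 higher and 2 lower, against 1.08% and 0.509% of all genes. PLCXD3 is itself counted in the 5 and in the 2, so these shares cannot show a change of the family as a whole. Besides PLCXD3, PLCL1 was lower at 259.7, 184 and 321 against 127, 136 and 141 (log2 change -0.88, DESeq2 adjusted p = 0.028). PLCB4 was higher at 628, 675 and 696 against 930.2, 869 and 899.9 (log2 change 0.43, DESeq2 adjusted p = 0.0216). The family thus divided, with a median of -0.16 that turned to 0.05 without testosterone 3.

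The next genes were put side by side after their values were seen. GNA14, ADCY7 and PDE1C come from no list, so no share of members goes with them. GNA14, a G protein subunit that couples receptors to phospholipase C, read 2368, 2616 and 2981 in the controls and 1702, 1740.3 and 1672 with testosterone (log2 change -0.63, SE 0.10, limma adjusted p = 0.138, DESeq2 adjusted p = 4.75e-05). ADCY7, an adenylyl cyclase that makes cyclic AMP, read 1060.1, 1219 and 1018 against 648, 711 and 759 (log2 change -0.64, DESeq2 adjusted p = 0.000782). PDE1C, a phosphodiesterase switched on by calcium and calmodulin, read 1318, 1390.3 and 1516 against 699, 866 and 971 (log2 change -0.75, DESeq2 adjusted p = 0.000595). All 3 were lower in every testosterone library than in any control, and were taken from genes for which the groups do not overlap. ADM, adrenomedullin, a peptide that widens blood vessels through cyclic AMP, was lower too, at 1869, 1757 and 1883 against 1114, 1319.9 and 1073 (log2 change -0.66, SE 0.11, limma adjusted p = 0.138, DESeq2 adjusted p = 5.85e-05). ADM was the only DESeq2 call among 21 measured genes of the hypoxia response, of which 14 were negative. PTGS1, the constitutive enzyme of prostaglandin synthesis, was higher at 233, 198 and 239 against 534, 473 and 376 (log2 change 1.03, SE 0.17, limma adjusted p = 0.15, DESeq2 adjusted p = 5.85e-05). It was the only DESeq2 call among 14 measured genes of prostaglandins, of which 5 were positive.

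Channels for calcium and sodium were lower on average. Of 29 measured genes 23 were negative, with a median log2 change of -0.35 (-0.39 to -0.26 without 1 library, -0.30 after quantile normalization, -0.35 with TMM and -0.38 with the meiotic covariate). The family mean was 0.19, 0.18 and 0.23 in the controls and -0.22, -0.23 and -0.15 with testosterone, so the groups did not overlap. In 8 genes all testosterone values lay below all controls and in 0 above, against 7.46% and 8.88% of all genes. An unadjusted limma p under 0.05 was found in 9, all lower, against 4.5% of all genes. None was called by DESeq2 or limma. CACNA2D2, an auxiliary subunit of calcium channels, read 78.0, 85.1 and 71.0 against 50.0, 35.5 and 34.9 (log2 change -0.96, SE 0.25, limma adjusted p = 0.31). SCN9A, a sodium channel of sensory neurons, read 252, 206 and 221 against 178, 118 and 143 (log2 change -0.64, SE 0.20, limma adjusted p = 0.378), and SCN7A, an atypical sodium channel found in glia, 23.5, 12.7 and 32.0 against 10.8, 0.00 and 1.89 (log2 change -2.78, limma adjusted p = 0.379). These transcripts were scarce, with SCN7A at 0 reads in testosterone 2. Potassium channels did not share the shift, with 34 of 55 negative, a median of -0.09 and 4 separated upward against 3 downward.

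Carriers and transporters differed in their share of calls. Of 254 solute carriers 109 were positive with a median of -0.04, and DESeq2 called 2 higher and 2 lower, close to the 1.59% called among all genes. SLC4A5, a sodium bicarbonate cotransporter, read 815, 540.1 and 786 in the controls and 299, 388 and 473 with testosterone (log2 change -0.88, DESeq2 adjusted p = 0.0139). SLC39A8, a zinc and manganese importer, read 145, 95.9 and 154 against 148, 542 and 459 (log2 change 1.36, DESeq2 adjusted p = 0.0209), with testosterone 1 within the control range. SLC35G1 read 76.9, 102 and 43.0 against 155, 375 and 180.3 (log2 change 1.64, DESeq2 adjusted p = 0.00936). Among 38 ABC transporters 25 were negative (median -0.12), and DESeq2 called 2 higher and 1 lower, against 1.08% and 0.509% of all genes. The lower one was ABCA12, given above. ABCA6 was higher at 562, 347 and 331 against 747, 938 and 653 (log2 change 0.94, DESeq2 adjusted p = 0.0157) along with ABCA10. Neither gene had any overlap between groups.

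Matrix genes differed in both directions. Of 44 genes of elastic fibres and small matrix proteins 25 were positive with a median of 0.09 (-0.01 after quantile normalization and -0.03 without control 2). DESeq2 called 4 of them higher and 2 lower, against 1.08% and 0.509% of all genes. Besides EMILIN3 and DCN, the higher ones were MFAP2, a microfibril protein, at 4386, 4049.5 and 3642 in the controls and 5238, 5615 and 5127 with testosterone (log2 change 0.41, DESeq2 adjusted p = 0.0198), and HSPG2, the basement membrane proteoglycan perlecan, at 18962, 14867 and 17108 against 22189, 23495 and 31955 (log2 change 0.60, DESeq2 adjusted p = 0.0194). The lower ones were PRELP, a leucine-rich proteoglycan, at 6918, 5203 and 6448 against 3827, 4296 and 4160.3 (log2 change -0.59, DESeq2 adjusted p = 0.00154), and BCAN, the proteoglycan brevican, at 123, 107 and 88.0 against 58.8, 48.6 and 48.2 (log2 change -1.01, DESeq2 adjusted p = 0.0444). Outside that list, ADAMTSL2, a secreted protein that binds fibrillin, was higher at 167, 158 and 133 against 449, 462 and 286 (log2 change 1.36, SE 0.22, limma adjusted p = 0.138, DESeq2 adjusted p = 6.97e-06). MXRA5, a matrix remodelling protein, was lower at 11151, 8738 and 11660 against 6507, 5080.2 and 6639.8 (log2 change -0.79, SE 0.14, limma adjusted p = 0.191, DESeq2 adjusted p = 0.000138). In these 6 genes the groups did not overlap. Among 36 matrix proteases and inhibitors 17 were positive with a median of -0.01. The 2 DESeq2 calls were MMP9, a gelatinase, at 339.8, 305 and 285 against 466, 596 and 796 (log2 change 0.96, DESeq2 adjusted p = 0.0014) and ADAMTS5, an aggrecanase, at 436, 243 and 235 against 928, 627 and 594 (log2 change 1.26, DESeq2 adjusted p = 0.00219). Of 11 laminin chains LAMC3 alone was called, and LAMA5 was lower at 2797, 2515 and 2919 against 2256, 2060.4 and 2262 (log2 change -0.32, limma adjusted p = 0.336). Of 38 collagens 23 were positive with a median of 0.05 and 0 were called by DESeq2.

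Cadherins and protocadherins, which hold cells together, were called in both directions. Of 41 measured genes 27 were negative, against 53.4% of all genes, with a median of -0.15, which turned positive without control 3 (0.01) or testosterone 1 (0.04), and DESeq2 called 1 higher and 4 lower, against 1.08% and 0.509% of all genes. Besides CDH19, CDH7 was lower at 2765, 3070.2 and 2899 against 2084, 1721 and 1860.1 (log2 change -0.63, SE 0.10, limma adjusted p = 0.136, DESeq2 adjusted p = 3.26e-05). PCDHB6, a clustered protocadherin, read 252, 208 and 228 against 115, 122 and 125 (log2 change -0.92, DESeq2 adjusted p = 0.00134), and PCDH18 7423, 7823 and 7759 against 5922, 5908 and 6428 (log2 change -0.33, DESeq2 adjusted p = 0.0142). CDH13, a cadherin anchored by a lipid tail, was higher at 177, 144 and 235 against 323, 402 and 323 (log2 change 0.93, DESeq2 adjusted p = 0.0129). None of these overlapped between groups. PCDHB6 belongs to a cluster of near-identical genes, and how reads shared by them were counted is not given in the sources used here, so its value is uncertain.

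Both growth factor lists held DESeq2 calls, to be set against 1.08% of all genes called higher and 0.509% called lower. In the TGF-beta, BMP and activin list 19 of 44 genes were positive with a median of -0.06 (0.03 without control 3). GDF10, a ligand of the BMP3 group, read 70.5, 89.0 and 39.0 in the controls and 176, 173 and 249 with testosterone (log2 change 1.64, SE 0.32, limma adjusted p = 0.232, DESeq2 adjusted p = 0.00103). BMP3, the closest relative of GDF10, read 438, 360 and 492 against 709, 808 and 558 (log2 change 0.68, DESeq2 adjusted p = 0.0333). These 2 related ligands were the only DESeq2 calls of the list, both higher, while the receptors BMPR2 and TGFBR1 were lower without a call (log2 changes -0.32 and -0.32). Outside that list KCP, a secreted modulator of BMP signals, was lower at 1147, 900.1 and 865 against 569, 570.3 and 619 (log2 change -0.72, DESeq2 adjusted p = 0.000808). In the insulin and IGF system 12 of 24 genes were positive, and DESeq2 called 2 higher and 2 lower. IGF1, the growth factor itself, read 223, 129 and 193 against 86.3, 86.1 and 82.2 (log2 change -1.05, SE 0.24, limma adjusted p = 0.279, DESeq2 adjusted p = 0.0131). Its binding proteins went both ways: IGFBP4 was lower (14415, 11982 and 14286 against 9817, 10357 and 11030, DESeq2 adjusted p = 0.0401), while IGFBP2 (8442, 8540.3 and 9361 against 10463, 12131 and 11978, DESeq2 adjusted p = 0.0169) and IGFBP6 (6442, 5295 and 6665 against 9248, 9381 and 7611, DESeq2 adjusted p = 0.0171) were higher. In all 4 the groups did not overlap, and the log2 changes of the binding proteins were -0.38, 0.39 and 0.51.

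Each of the next lists held 0 to 2 DESeq2 calls, against 1.08% of all genes called higher and 0.509% called lower. Of 16 Notch genes 14 were negative with a median of -0.21 (-0.26 to -0.13 without 1 library), and RBPJ, the DNA-binding partner of Notch, read 1702, 1719 and 1808 against 1442, 1478 and 1559.9 (log2 change -0.22, limma adjusted p = 0.462), with 0 DESeq2 calls in the list. Of 35 Wnt genes 13 were positive (median -0.07), of 22 retinoic acid genes 10 (median -0.06) and of 39 cell division genes 20 (median 0.01), and limma and DESeq2 called 0 in each, with 1, 1 and 1 at an unadjusted limma p under 0.05. In the Hedgehog list 1 of 12 genes was called by DESeq2, SCUBE3, a secreted protein that helps release Hedgehog ligands, at 1898, 1905 and 1318 against 2389.7, 2663 and 2997 (log2 change 0.67, DESeq2 adjusted p = 0.0157). Among 16 imprinted growth genes MEST read 4922, 3878 and 4319 against 6451, 7842 and 5518 (log2 change 0.59, DESeq2 adjusted p = 0.0161) and DCN, given above, was the other call. Among 24 apoptosis genes APAF1, which forms the apoptosome, was the only call, at 2074, 2449 and 1993 against 1373, 1406 and 1620.3 (log2 change -0.56, DESeq2 adjusted p = 0.00351). The 23 immediate early genes had a median of 0.23, which followed single libraries: their list mean was 0.05, -0.59 and 0.27 in the controls and 0.65, 0.07 and -0.45 with testosterone, and the median was -0.11 without control 2.

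The broadest shift in number of genes was in ribosomal proteins. Of 34 measured genes 31 were positive and in 28 all testosterone values lay above all controls, against 8.88% of all genes. DESeq2 called 10 of them higher, against 1.08% of all genes. Among the 928 genes with a mean above 5000, where RPLP1 and RPS19 below stand, 200 were separated upward and DESeq2 called 49 higher. The median log2 change was 0.26 (0.24 to 0.30 without 1 library, 0.26 with TMM), and 0.13 after quantile normalization, which ties the most abundant transcripts to the same values in every library. RPLP1, of the ribosomal stalk, read 44086, 44459 and 46291 in the controls and 55828, 55633 and 54972 with testosterone (log2 change 0.30, SE 0.07, limma adjusted p = 0.29, DESeq2 adjusted p = 0.00505). RPS19 read 27007, 27581 and 28459 against 34448, 32672 and 34033 (log2 change 0.28, DESeq2 adjusted p = 0.0204). The changes were small, but the replicates lay close to each other. Together the ribosomal protein genes took 3.02, 3.11 and 3.18% of the reads in the controls and 3.71, 3.52 and 3.69% with testosterone. Ribosomal protein genes have many near-identical pseudogenes, and how shared reads were counted is not given in the sources used here.

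Some other gene families of basic cell upkeep were also mostly positive, with fewer calls. Of 38 proteasome subunits 32 were positive (median 0.12), with 14 separated upward and 2 downward. Of 33 nuclear genes of the respiratory chain 28 were positive (median 0.15), with 10 separated upward and 1 downward. Over all genes 8.88% were separated upward and 7.46% downward, and 0 of either list were called by DESeq2. In both the medians stayed positive after quantile normalization (0.14 and 0.15). Of 27 genes of oxidative stress defence 23 were positive with a median of 0.13, and the list means did not overlap. Beside PRDX6, GSTM3, a glutathione transferase, read 14444, 13124 and 18496 in the controls and 23713, 19446 and 20864 with testosterone (log2 change 0.49, limma adjusted p = 0.333). GCLC, the catalytic subunit of the first enzyme of glutathione synthesis, went the other way, at 3449.7, 3379 and 3705 against 2873, 2687 and 2177 (log2 change -0.45, DESeq2 adjusted p = 0.0434). Of 51 translation factors 33 were positive with a median of 0.05, and their family means overlapped between the groups. Of 27 genes of chaperones and the unfolded protein response 19 were positive, with a median of 0.04 (-0.04 after quantile normalization). The mitochondrially encoded genes were balanced, with 5 of 10 positive and a median of -0.05.

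2 families of calcium-dependent proteins were higher on average. Of 14 S100 genes 13 were positive with a median of 0.41 (0.36 to 0.47 without 1 library), and the family means did not overlap. S100A16 read 1307, 1468 and 1469 against 2009, 1863 and 1833 (log2 change 0.43, SE 0.09, limma adjusted p = 0.279, DESeq2 adjusted p = 0.0118), and S100A1 36.3, 40.1 and 37.0 against 90.2, 96.2 and 63.3 (log2 change 1.10, limma adjusted p = 0.29). Of 9 annexins, which bind membranes in the presence of calcium, 8 were positive with a median of 0.26 (0.17 to 0.33 without 1 library). Besides ANXA9, ANXA3 was called by DESeq2, at 1067, 875 and 969.5 against 1151, 1522 and 1575 (log2 change 0.54, DESeq2 adjusted p = 0.0434). Neither family changed direction after quantile normalization (0.43 and 0.25) or with TMM (0.41 and 0.26).

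**Figure D5:**
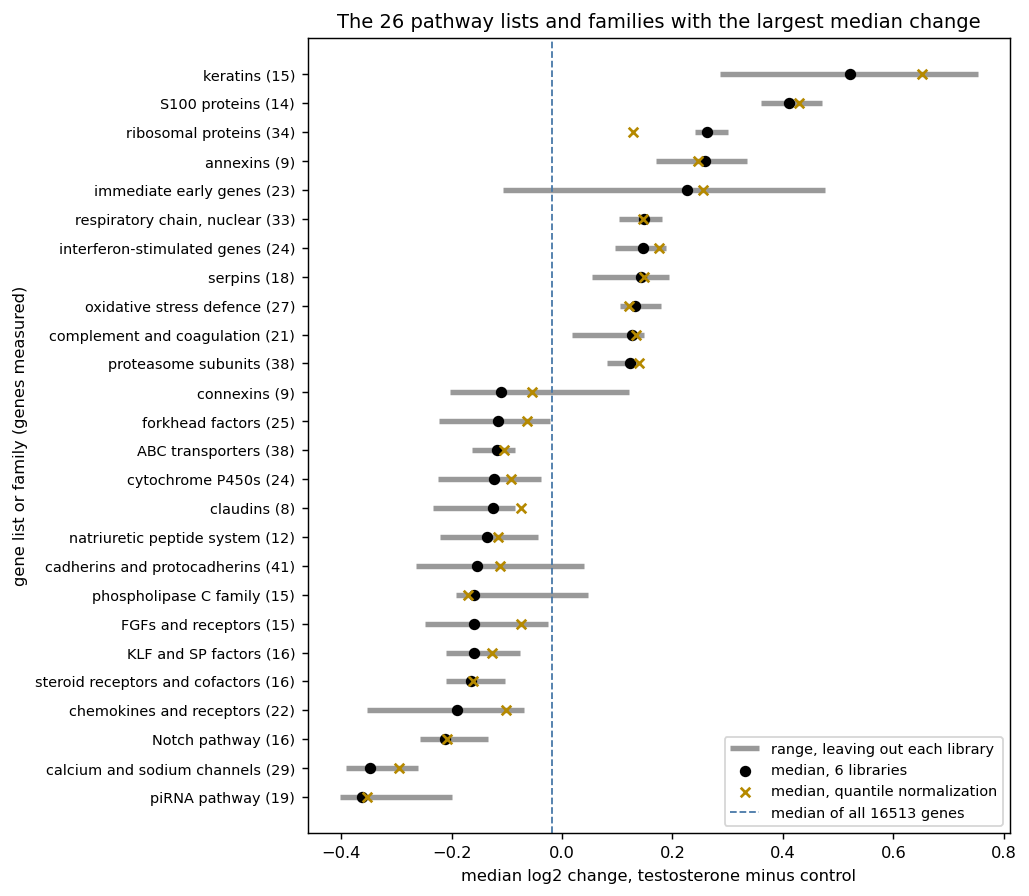
Median log2 change, testosterone minus control, of the 26 pathway lists and gene families (8 or more genes measured) with the largest medians. Black points use all 6 libraries, grey bars span the fits that leave out 1 library, crosses follow quantile normalization and the dashed line marks the median of all 16513 genes. S100 proteins, ribosomal proteins and annexins lie to the right of that line and calcium and sodium channels, piRNA and Notch genes to the left under each setting.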

How the data were processed

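Whole fetal ovaries were sequenced as 150-base paired reads from 500 ng of RNA, with 45 to 50 M reads per sample stated in the labels' protocols. Trimming used Trimmomatic 0.36 and alignment STAR 2.5.2b, per the submitters' processing notes. No source used here gives the counter, genome build or strand setting. The deposited signal columns hold normalized counts per gene. Divided by the smallest step of their library, 100% of the values came within 0.01 of a whole number, and these whole numbers are the recovered reads. The table holds only genes with a mean of at least 10 (the smallest is 10.04). The authors' own fold changes and p-values were not used.

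The main fit was limma 3.58.1 in R 4.3.3 on log2(value + 1) over 16513 genes without covariates. The recovered reads were also tested with edgeR 4.0.16 (quasi-likelihood) and DESeq2 1.42.0. All were also run on simulated counts with known changes. The outcome is not reported here and was not used to choose between the tools. Of the genes in 46 lists (1258 genes) and 38 families matched by symbol, those measured are described by counts and medians, without set tests. The members, lists and rules were chosen with earlier results of these data known. Genes named are those past limma, the 14 of smallest limma p and the 8 of largest change per direction among separated DESeq2 calls with a symbol, list members called by DESeq2 (up to 6) or with an unadjusted p under 0.05 (up to 3), and the 3 most abundant markers of each cell type. Some genes that these rules name are not reported here. Others are said to have been picked after their values were seen. No gene coordinates or sequences were used. Correlations of same-numbered libraries' deviations were 0.13, 0.009 and 0.403, so the numbers were not taken as pairs.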

Additional observations from a re-analysis of the deposited data

How the results depend on the processing

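Limma called 2 genes higher and 1 lower with pseudocounts of 0.5 and 5, without the filter, at a mean of at least 50, with TMM and after quantile normalization. The unfiltered fit holds the same genes, since the table starts at a mean of 10. DESeq2 called 178 higher and 84 lower, edgeR 3 and 1, limma with library weights 14 and 3, and limma at an adjusted p under 0.1 16 and 4. With the meiotic level as covariate limma called 3 and 1, and DESeq2 170 and 153. With the sample number as a replicate block limma called 5 higher and 5 lower; PLCXD3 then had an adjusted p of 0.0554. Leaving out 1 library gave 0 to 9 genes higher and 0 to 4 lower with limma (9 and 4 without testosterone 3), and 84 to 261 higher and 29 to 212 lower with DESeq2. The genes whose groups do not overlap numbered 2413 at a mean of at least 50, 2690 with TMM, 2716 after quantile normalization and 3924 to 5390 without 1 library, where fewer values have to separate. Changes of at least 2-fold numbered 133 at a mean of at least 50, 212 with a pseudocount of 5, 334 with TMM, 326 after quantile normalization and 351 to 521 without 1 library. The causes were not tested. Of 3993 pairs of a named gene and a setting, 3866 kept the direction and the side of the threshold. In 110 pairs the gene passed only under the alternative and in 16 only in the main fit. Only 3 of the 236 named genes passed the main fit, so most pairs kept their side by passing in neither fit. Where groups do not overlap, leaving out 1 library cannot turn the sign. These counts therefore say little about how firm the named changes are. In 1 pair the sign turned: COL1A1 after quantile normalization (log2 change -0.0000), because it is the most abundant gene in each library and that method gives it one value. At 24.1 to 28.4 M reads the precision is limited for scarce genes, whose within-group SD was 0.50 at means from 10 to 50. The series gives 3 libraries per group, and 1608 genes had no DESeq2 adjusted p.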

Other observations

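EFHB was not accompanied by the other genes of cilia and axonemes. Of 40 measured genes of that list 26 were negative with a median log2 change of -0.10 (-0.07 with the meiotic level as covariate), and EFHB was the only one called by limma or DESeq2. DNAH7, a dynein heavy chain of the axoneme, read 264, 362 and 194 in the controls and 168, 178 and 164 with testosterone (log2 change -0.64, SE 0.23, limma adjusted p = 0.448). SPAG17, of the central pair of the axoneme, read 203, 277 and 219.9 against 145, 129 and 179 (log2 change -0.62, limma adjusted p = 0.386). KIF9, a kinesin of cilia that is not in that list, was higher at 175, 210.3 and 177 against 259.8, 219.8 and 307 (log2 change 0.47, limma adjusted p = 0.458). The groups did not overlap in these 3 genes, and none passed the test.

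Genes of synaptic adhesion were found at both ends. Of 29 measured genes 12 were positive and the median was -0.05. SLITRK1 was called higher and CBLN2 lower by DESeq2. LRRTM3, a partner of neurexins, was lower at 24.6, 52.8 and 30.0 against 8.82, 11.1 and 14.2 (log2 change -1.52, limma adjusted p = 0.311), and NTNG2, a cell surface netrin outside the list, higher at 240.4, 355 and 357 against 523, 651 and 395 (log2 change 0.71, limma adjusted p = 0.386). Both had separated groups and neither passed. ADGRB3, a synaptic adhesion receptor of the same family as ADGRD1, read 76.9, 77.3 and 79.0 against 147, 158 and 150.1 (log2 change 0.96, SE 0.18, DESeq2 adjusted p = 0.00622). These 2 receptors were the only DESeq2 calls among 20 adhesion G protein-coupled receptors, of which 8 were positive.

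Among 41 enzymes of DNA methylation and chromatin 28 were negative, against 53.4% of all genes, with a median of -0.08. Of these enzymes 7 were separated downward and 1 upward, against 7.46% and 8.88% of all genes. In either direction 19.5% were separated, against 16.3% of all genes. TET1, which oxidizes methylated cytosine, read 1233, 1054 and 1190.3 against 795, 923 and 975 (log2 change -0.37, limma adjusted p = 0.384), and the related TET3 472, 597 and 469 against 299.9, 329 and 452 (log2 change -0.52, limma adjusted p = 0.444). HDAC1, a histone deacetylase, was higher at 12664, 11308 and 12419 against 13763, 15511 and 14325 (log2 change 0.26, limma adjusted p = 0.386). None was called by limma or DESeq2. MX1, an antiviral protein induced by interferon, read 1364, 1789 and 1545 against 1973, 2079.7 and 1919.6 (log2 change 0.35, limma adjusted p = 0.39), in a list where 16 of 24 genes were positive (median 0.15) and 0 were called by DESeq2.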
